A study of Homo sapiens with 8 samples.

Results

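Genes that mark the identity and differentiation of colon epithelium were followed through PPA2 knockdown in DLD1, a human colorectal adenocarcinoma cell line. The 9 genes were CDX1, CDX2, HNF4A, VIL1, MUC2, TFF3, CEACAM5, CEACAM6 and KRT20. They were taken by exact symbol from the 60234 genes of the normoxia table and the 60612 genes of the hypoxia table, and all 9 were found in both. The study sequenced polyadenylated RNA of DLD1 cells that carried either the shNT hairpin RNA (genotype label WT, the control here) or the shPP hairpin (genotype label PPA2 knockdown). PPA2 encodes mitochondrial inorganic pyrophosphatase. Cells were kept for 12 hours under normoxia or hypoxia, which gave 4 groups of 2 libraries: control under normoxia, knockdown under normoxia, control under hypoxia and knockdown under hypoxia. All groups carried a hairpin, and the labels name 1 hairpin against PPA2 and no rescue, so effects of the hairpin itself and loss of PPA2 cannot be told apart. The labels do not say whether replicates were separate cultures, so p-values measure the spread between these libraries, which may be technical.

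The intestinal epithelium is kept in its state by a small circuit of transcription factors. CDX1 and CDX2 are homeobox factors that set intestinal identity, and HNF4A is a nuclear receptor that acts with them on genes of absorptive cells. Their best known effectors differ by cell type: VIL1 encodes villin, which bundles the actin of the brush border, and KRT20 encodes a keratin of mature surface cells. MUC2 and TFF3 encode the gel-forming mucin and the trefoil peptide of goblet cells, and CEACAM5 and CEACAM6 encode surface glycoproteins of the carcinoembryonic antigen family.

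The genes lie on 8 chromosomes. The hypoxia table placed them in GRCh38, with CDX2 on the minus strand of chromosome 13 (27960918 to 27969315), HNF4A on the plus strand of chromosome 20 (44355700 to 44434596), VIL1 on the plus strand of chromosome 2 (218419121 to 218453295), TFF3 on the minus strand of chromosome 21 (42311667 to 42315651) and KRT20 on the minus strand of chromosome 17 (40875889 to 40885242). CEACAM5 (41708585 to 41730433) and CEACAM6 (41750977 to 41772211) are neighbours on the plus strand of chromosome 19. For CDX1 (chromosome 5, 150166795 to 150184558) and MUC2 (chromosome 11, 1074875 to 1110511) the positions are those of GENCODE 29 in the same build, both on the plus strand.

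RefSeq promoters (GRCh38.p14, 250 bases before to 50 after the start) were matched for 6 of the 9 genes. They are shown for CDX2 and MUC2, which hold a CDX letter pattern, and for KRT20, whose transcript rose at both oxygen levels. Capitals mark matches to TTTATNG, a CDX pattern read on both strands.
CDX2, chr13:27969266-27969565, minus strand: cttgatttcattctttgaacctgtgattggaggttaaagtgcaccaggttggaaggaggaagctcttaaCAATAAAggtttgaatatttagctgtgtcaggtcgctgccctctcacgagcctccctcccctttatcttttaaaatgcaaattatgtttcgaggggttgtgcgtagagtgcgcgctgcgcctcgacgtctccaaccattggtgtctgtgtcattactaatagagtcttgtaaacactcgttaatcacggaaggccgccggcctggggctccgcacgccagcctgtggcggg
MUC2, chr11:1074624-1074923, plus strand: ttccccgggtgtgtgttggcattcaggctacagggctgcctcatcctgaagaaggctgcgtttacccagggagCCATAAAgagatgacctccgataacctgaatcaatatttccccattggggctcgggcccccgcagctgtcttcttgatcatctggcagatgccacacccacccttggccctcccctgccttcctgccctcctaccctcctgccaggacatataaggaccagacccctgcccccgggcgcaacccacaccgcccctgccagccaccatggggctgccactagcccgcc
KRT20, chr17:40885193-40885492, minus strand: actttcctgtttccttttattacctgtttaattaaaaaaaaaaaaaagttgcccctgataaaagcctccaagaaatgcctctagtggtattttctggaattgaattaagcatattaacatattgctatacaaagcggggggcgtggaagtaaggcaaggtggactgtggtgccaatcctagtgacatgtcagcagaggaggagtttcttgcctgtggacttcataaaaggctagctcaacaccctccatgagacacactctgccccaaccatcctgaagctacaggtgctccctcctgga
The CDX2 match begins at position −181 and the MUC2 match at −177, counted from the start with no position 0, and both lie on the strand opposite to the one printed. The KRT20 window held no match, and neither did the windows of HNF4A, CEACAM5 and CEACAM6. Among 35116 RefSeq promoters of this length 9.7% hold the pattern. No window of the 6 genes matched CAAAGNNCA, an HNF4 pattern that 5.3% of promoters hold. These matches describe letters and show no binding.

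The promoters of the neighbouring paralogs CEACAM5 and CEACAM6 are shown together for their likeness.
CEACAM5, chr19:41708376-41708675, plus strand: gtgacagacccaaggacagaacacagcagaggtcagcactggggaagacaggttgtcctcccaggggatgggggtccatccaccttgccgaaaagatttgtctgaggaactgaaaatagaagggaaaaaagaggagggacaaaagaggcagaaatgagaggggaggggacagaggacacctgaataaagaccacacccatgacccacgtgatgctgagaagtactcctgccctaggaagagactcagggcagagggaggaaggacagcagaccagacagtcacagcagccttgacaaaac
CEACAM6, chr19:41755280-41755579, plus strand: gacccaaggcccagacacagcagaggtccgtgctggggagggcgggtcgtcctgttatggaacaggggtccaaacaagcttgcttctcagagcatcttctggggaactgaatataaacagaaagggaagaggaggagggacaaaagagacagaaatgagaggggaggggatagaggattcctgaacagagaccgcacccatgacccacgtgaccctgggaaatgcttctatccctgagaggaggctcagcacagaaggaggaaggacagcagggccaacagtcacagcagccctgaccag
The CEACAM6 window lies inside the bounds that the authors' file gives for the gene. Aligned end to end, these promoters were identical at 230 of 308 columns (74.7%). In their transcripts (GENCODE 29), 16.3% of the stretches of 50 bases of CEACAM5 and 7.0% of those of CEACAM6 also occurred in transcripts of other genes, so the values of both are less certain. Most of these were shared with AC243967.1 (529 of 570 for CEACAM5 and 112 of 210 for CEACAM6). The share was 0.2% for VIL1 and 0.0% for each of the other 6 genes.

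Values came per length of gene, as RPKM under normoxia and FPKM under hypoxia, in tables scaled separately, so knockdown was compared with control only within a table. PPA2 stood at 79.8 and 84.1 RPKM in control and 5.88 and 5.74 RPKM in knockdown libraries under normoxia. Under hypoxia it stood at 65.5 and 50.8 against 9.85 and 9.0 FPKM, so it was low in every library labelled knockdown. The ratio of its control to its knockdown mean was 14.1 under normoxia and 6.17 under hypoxia. The depth of the normoxia libraries, estimated from steps between low values, was about 28004668 to 35722663 reads. For hypoxia only 15.3% to 15.8% of low values fell on whole reads, too few to place the depth. Across genes, replicates correlated at r = 0.992 to 0.995. Tests used limma on log2(value + 1), over genes with a mean of at least 1 in the fitted libraries, and a gene was called at a Benjamini-Hochberg adjusted p under 0.05.

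The members spanned a wide range of levels. In control libraries under normoxia, CDX2 was highest at 39.7 ± 0.0929 RPKM (SD, n = 2), ahead of KRT20 at 26.2 ± 1.76 RPKM. HNF4A (15.3 ± 0.0342 RPKM) and TFF3 (14.5 ± 1.72 RPKM) came next and overlapped. VIL1 followed at 3.30 ± 0.0797 RPKM. CEACAM5, CEACAM6, CDX1 and MUC2 had means between 0.0369 and 0.356 RPKM. The order of the first 5 was the same in control libraries under hypoxia (40.1, 23.3, 8.49, 8.02 and 4.21 FPKM), where HNF4A and TFF3 overlapped again. CDX2 exceeded 84.6% and 87.1% of tested genes in control cells under normoxia and hypoxia. Among the members, the label of colon epithelium therefore rested mostly on CDX2, KRT20, HNF4A and TFF3, while CDX1 and the goblet mucin MUC2 were near 0. Of 30 listed genes of absorptive cells, described below, only 8 passed the filter under normoxia. The 5 members CDX2, HNF4A, VIL1, TFF3 and KRT20 passed the filter on low values in both tables, and CDX1, MUC2, CEACAM5 and CEACAM6 did not.

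**Figure D1:**
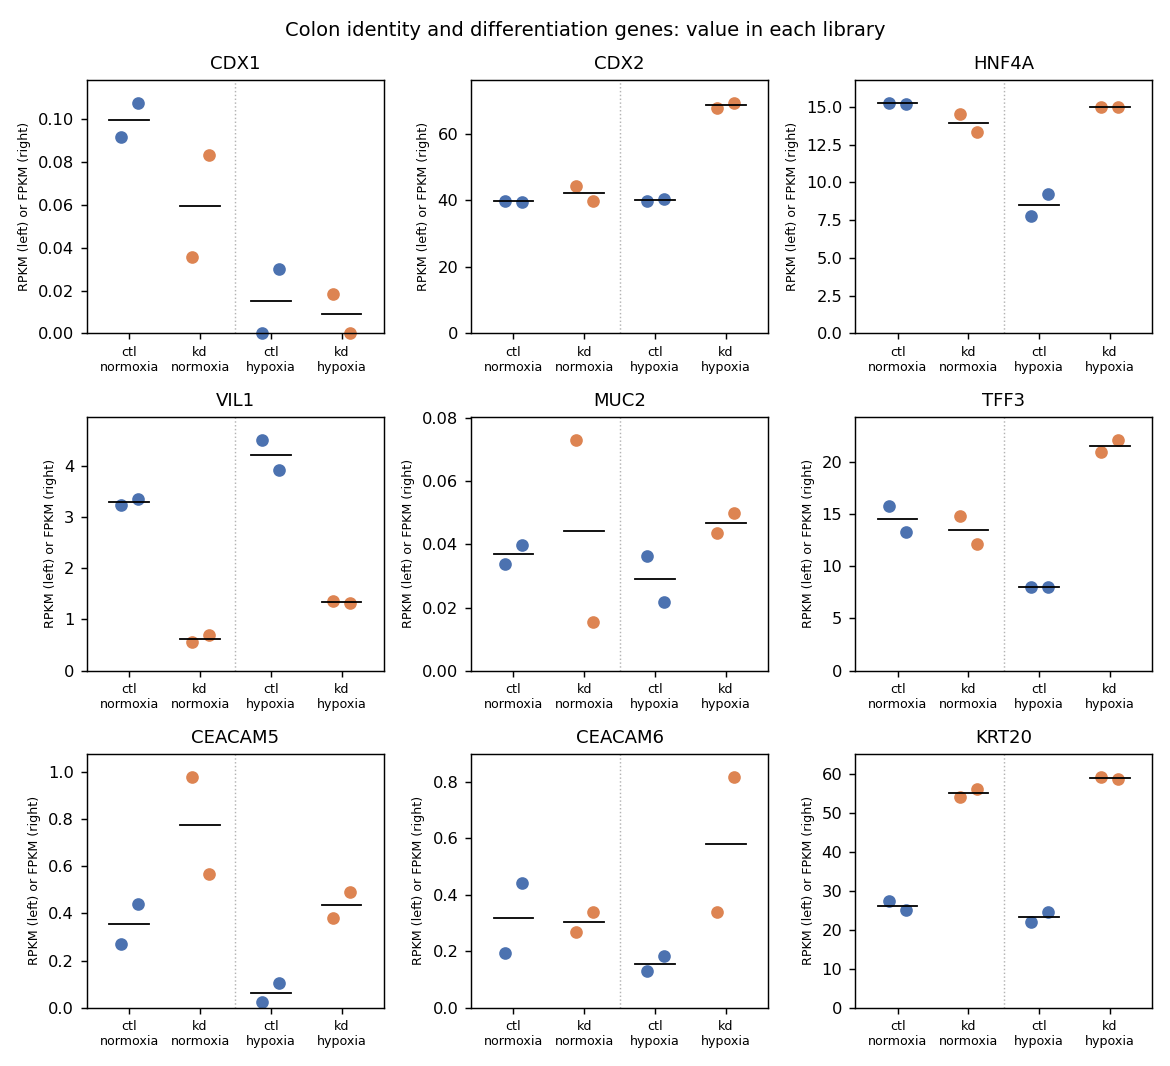
Value of each member in each library, as RPKM for normoxia (left of the dotted line) and FPKM for hypoxia (right), with control (ctl) in blue, knockdown (kd) in orange and bars at the mean of 2 libraries. CDX2, HNF4A and TFF3 stood apart between control and knockdown clearly under hypoxia (for TFF3 8.02 against 21.5 FPKM on average), KRT20 and VIL1 at both oxygen levels. Scales differ between panels.

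Under normoxia, knockdown moved KRT20 and VIL1 in opposite directions. KRT20 stood at 27.4 and 24.95 RPKM in control and at 54.2 and 56.1 RPKM in knockdown libraries. Both knockdown libraries were far above both controls, which lay close together. This made a log2 fold change of 1.05 ± 0.06 (SE, 2.07-fold), at an adjusted p of 0.000373 in limma. VIL1 stood at 3.24 and 3.35 RPKM in control and at 0.550 and 0.689 RPKM in knockdown libraries. Villin transcripts were thus low in both knockdown libraries, and the gene passed the filter through its control values. Its log2 fold change was −1.41 ± 0.12 (adjusted p = 0.000875 in limma). On this scale the fall of so low a gene is understated: the ratio of the untransformed means was 5.32, and with a pseudocount of 0.1 the log2 fold change was −2.25. In bulk RNA, fewer cells that express a gene and less RNA per cell cannot be told apart.

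The transcription factors and the trefoil peptide did not pass the test under normoxia. CDX2 read 39.7 and 39.6 RPKM in control and 44.3 and 39.9 RPKM in knockdown libraries (0.08 ± 0.06, limma adjusted p = 0.358). HNF4A read 15.3 and 15.2 against 14.6 and 13.3 RPKM (−0.12 ± 0.07, limma adjusted p = 0.198). The groups of both genes did not overlap, but their gaps were small against the spread of the knockdown libraries. TFF3 read 15.7 and 13.3 against 14.8 and 12.2 RPKM, and its groups overlapped (−0.10 ± 0.11, limma adjusted p = 0.519). The sign of the TFF3 value turned without control replicate 1 (0.012) or knockdown replicate 2 (0.031). In all, 2 of the 5 tested members were called, 1 higher and 1 lower, against 34.2% of the 14090 genes tested (22.5% higher, 11.7% lower). Both knockdown libraries were above both controls in 44.2% of those genes and below them in 26.4%, so that groups did not overlap in 70.5%. Of all calls 65.7% were higher, and 48.6% after a scaling to the median ratio.

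Under hypoxia, all 5 tested members were called, 4 higher and 1 lower in knockdown cells. TFF3 stood at 8.02 and 8.03 FPKM in control and at 21.0 and 22.1 FPKM in knockdown libraries. The 2 control libraries were almost equal, and both knockdown libraries were far above them. This made a log2 fold change of 1.32 ± 0.08 (2.50-fold), at an adjusted p of 4.39e-05 in limma. KRT20 stood at 22.0 and 24.6 FPKM in control and at 59.2 and 58.6 FPKM in knockdown libraries. The rise was 1.30 ± 0.08 (2.47-fold, adjusted p = 4.5e-05 in limma). KRT20 was the tested member called higher at both oxygen levels.

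Both transcription factors rose as well under hypoxia. CDX2 read 39.8 and 40.4 FPKM in control and 67.7 and 69.2 FPKM in knockdown libraries, a log2 fold change of 0.76 ± 0.06 (1.69-fold, limma adjusted p = 0.000126). HNF4A read 7.77 and 9.20 against 15.005 and 14.97 FPKM, a log2 fold change of 0.76 ± 0.10 (1.69-fold, limma adjusted p = 0.000664). Neither gene's groups overlapped, and the control libraries of HNF4A lay further apart than its knockdown libraries. VIL1 read 4.51 and 3.92 against 1.35 and 1.32 FPKM. Its log2 fold change was −1.16 ± 0.12 (adjusted p = 0.000321 in limma), low in both knockdown libraries, and the ratio of the untransformed means was 3.15. Across all 13080 genes tested, 58.4% were called, 24.6% higher and 33.8% lower. Both knockdown libraries were above both controls in 35.5% and below them in 44.9%, so that groups did not overlap in 80.4%. A call was thus the more common outcome for any gene. The median log2 fold change was 0.76 over the 5 tested members and −0.06 over all genes tested. The 5 members were called under each of the alternatives tried for the hypoxia table, with adjusted p between 3.39e-08 and 0.0180.

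**Figure D2:**
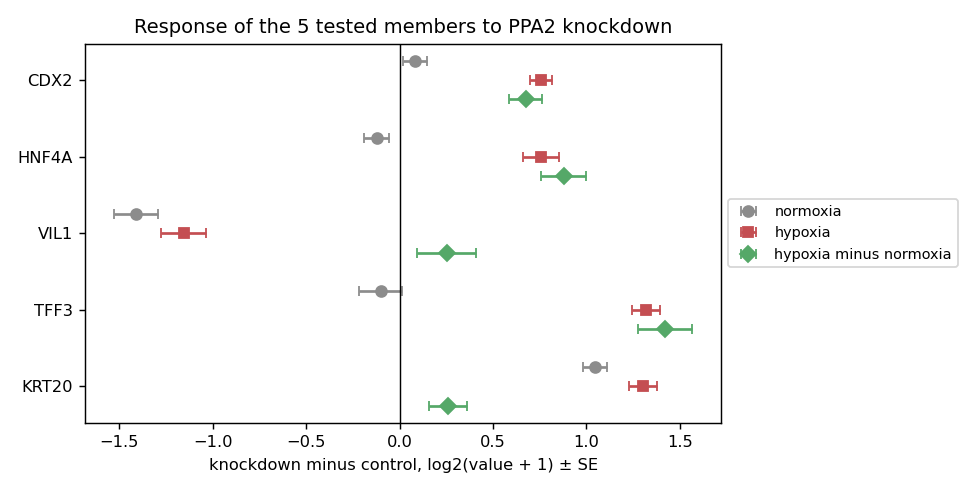
Log2 fold change of knockdown against control on log2(value + 1), with SE as error bars, for the 5 tested members under normoxia (grey), under hypoxia (red), and the difference of both responses (green). CDX2, HNF4A and TFF3 lie near 0 under normoxia and between 0.76 and 1.32 under hypoxia, whereas VIL1 lies below 0 and KRT20 above 0 in both.

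The difference between the responses at both oxygen levels was tested in one fit of all 8 libraries. It asks whether the effect of knockdown differed between the oxygen levels. The values of each level were scaled separately, so oxygen and this processing cannot be told apart in the difference. The response was higher under hypoxia by 1.42 ± 0.14 for TFF3 (limma adjusted p = 8.06e-05), by 0.88 ± 0.12 for HNF4A (limma adjusted p = 0.000378) and by 0.67 ± 0.09 for CDX2 (limma adjusted p = 0.000321), all on the log2 scale. For these 3 genes knockdown libraries were above control under hypoxia, while under normoxia the mean of CDX2 was slightly higher and those of HNF4A and TFF3 lower, none of them called. For KRT20 the difference was 0.26 ± 0.10 (limma adjusted p = 0.0656). It passed with a scaling to the median ratio (0.40, adjusted p = 0.00885) and without control replicate 2 under hypoxia (0.34, adjusted p = 0.0191). For VIL1 it was 0.25 ± 0.16 (limma adjusted p = 0.221), and it passed with a pseudocount of 0.1 (0.66, adjusted p = 0.0483). Against these 3 called members, 42.4% of the 13585 genes tested had a called difference, 13.4% higher and 29% lower under hypoxia. Of those calls 31.5% were higher, and 49.7% after the scaling to the median ratio, which moved the median of all genes, −0.13, by 0.12. The 3 members were called under both scalings. The fall of PPA2 itself was smaller under hypoxia, with a called difference of 1.11 ± 0.15 (limma adjusted p = 0.000340). Its part in the differences of the members was not tested.

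Levels in the 2 control groups are given side by side, without a test. CDX2 read 39.7 RPKM under normoxia and 40.1 FPKM under hypoxia on average, and KRT20 26.2 RPKM and 23.3 FPKM. HNF4A read 15.3 RPKM and 8.49 FPKM, and TFF3 14.5 RPKM and 8.02 FPKM. In knockdown cells HNF4A read 13.9 RPKM and 14.99 FPKM, and TFF3 13.5 RPKM and 21.5 FPKM. The control value of HNF4A under hypoxia was thus the lowest of its 4 group means, and the same held for TFF3. The scaling of each table and the oxygen level cannot be told apart in such pairs.

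The antigen genes were scarce, and the values of both were higher in knockdown than in control libraries under hypoxia. CEACAM5 read 0.0228 and 0.105 FPKM in control and 0.379 and 0.491 FPKM in knockdown libraries under hypoxia. Under normoxia it read 0.272 and 0.439 against 0.978 and 0.569 RPKM, which by exon length correspond to about 26, 53, 117 and 59 reads. The CEACAM5 groups did not overlap at either oxygen level. Among genes tested, a set without CEACAM5, this held for 70.5% under normoxia and 80.4% under hypoxia. The share was not taken for genes below the filter. CEACAM6 read 0.130 and 0.183 against 0.340 and 0.817 FPKM under hypoxia, with the knockdown libraries far apart. Under normoxia its groups overlapped (0.193 and 0.442 against 0.270 and 0.339 RPKM). When the filter on low values was dropped, CEACAM5 passed under hypoxia (log2 fold change 0.43 ± 0.07, limma adjusted p = 0.0326) but not under normoxia (0.38 ± 0.16, limma adjusted p = 0.260). CEACAM6 passed in neither (limma adjusted p = 0.188 under hypoxia and 0.975 under normoxia). Over all genes, 6067 of 29182 passed under hypoxia without the filter, and 2349 of 34609 under normoxia.

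CDX1 and MUC2 rested on few reads under normoxia, where reads could be estimated. CDX1 read 0.0916 and 0.108 RPKM in control and 0.0359 and 0.0835 RPKM in knockdown libraries under normoxia, about 5, 7, 2 and 5 reads. Under hypoxia it was listed at 0 in control replicate 1 and knockdown replicate 2, and at 0.0299 and 0.0183 FPKM in the others. MUC2 read 0.0339 and 0.0399 against 0.0731 and 0.0155 RPKM under normoxia, about 12, 18, 33 and 6 reads, and its knockdown libraries lay on either side of the controls. Under hypoxia it read 0.0363 and 0.0217 against 0.0435 and 0.0499 FPKM. The groups of MUC2 did not overlap under hypoxia, nor did those of CDX1 under normoxia. Among genes tested, a set without CDX1 and MUC2, 80.4% did not overlap under hypoxia and 70.5% under normoxia. Neither gene passed when the filter on low values was dropped (limma adjusted p between 0.516 and 0.919).

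Other genes of the intestinal epithelium were taken from lists by role. Of 20 intestinal transcription factors 18 were tested. Under normoxia 1 rose and 6 fell (median −0.10, against 0.07 over all genes), and under hypoxia 6 rose and 5 fell (median 0.0074, against −0.06). Over all genes 22.5% were called higher and 11.7% lower under normoxia, and 24.6% and 33.8% under hypoxia. Under normoxia FOXA1, a factor of endodermal epithelium, fell (−0.51, limma adjusted p = 0.00224), and its relative FOXA3 rose (0.46). FOXA1 was also called lower under hypoxia (−0.39, limma adjusted p = 0.00222). Under hypoxia ISX, the intestine-specific homeobox gene, rose from 1.04 ± 0.0361 to 3.73 ± 0.0721 FPKM (1.21, limma adjusted p = 0.000253). Of the paired epithelial ETS factors, ELF3 fell from 275 to 157 FPKM (−0.80) and EHF rose from 49.1 to 75.2 FPKM (0.61), and FOXA3 rose (0.43). Under normoxia EHF was called lower (−0.38, limma adjusted p = 0.00313). The FOXA3 calls were lost with the first control, the second control or the first knockdown library left out, at adjusted p of 0.0732, 0.0787 and 0.114 under normoxia and of 0.0814, 0.0732 and 0.247 under hypoxia. The log2 fold changes were then 0.47, 0.46 and 0.36 under normoxia and 0.42, 0.44 and 0.31 under hypoxia, with larger SE.

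Genes of the absorptive cell surface split. Of 30 listed, 8 were tested under normoxia (3 rose, 2 fell, median 0.05), beside 22.5% higher and 11.7% lower over all genes. Under hypoxia 10 were tested (3 rose, 1 fell, median −0.04), beside 24.6% and 33.8%. CDH17, the liver-intestine cadherin and a known CDX2 target, went from 72.6 and 71.5 to 155 and 161 RPKM under normoxia (1.12 ± 0.05, limma adjusted p = 0.000170). Under hypoxia it went from 39.6 and 39.1 to 123 and 123 FPKM (1.62 ± 0.06, limma adjusted p = 1.39e-05). DPP4, a brush border peptidase, rose in both (0.92 and 0.87). EZR, whose product links actin to the membrane of microvilli, rose under hypoxia (0.40). MYO1A, the brush border myosin, fell there from 1.95 and 1.78 to 0.390 and 0.658 FPKM (−0.92, and −1.69 with a pseudocount of 0.1). MYO1A passed the filter through its control libraries, and it was not tested without control replicate 1 or in the fit of all libraries. The bundler PLS1 rose (0.29) and the sulfate transporter gene SLC26A2 fell (−0.39) under normoxia. Without control replicate 1 or 2 the PLS1 call was lost (adjusted p = 0.0589 and 0.0832) at log2 fold changes of 0.30 and 0.27. Without control replicate 2 or knockdown replicate 1 the SLC26A2 call was lost (0.102 and 0.0522) at −0.35 and −0.37. In each case the SE was larger than with all 4 libraries.

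Of 25 goblet and secretory genes 10 were tested. Under normoxia 2 rose and 1 fell (median 0.11), near the 22.5% and 11.7% of all genes. Under hypoxia 5 rose and 2 fell (median 0.32), beside 24.6% and 33.8% of all genes. The membrane mucin MUC20, a gene with near-identical copies that can share reads, rose in both (0.53 and 1.08). MUC13, another membrane mucin, rose from 12.0 to 20.4 FPKM under hypoxia (0.72), and the gel-forming mucin MUC5AC from 5.93 to 10.4 FPKM (0.72). SPINK4, a peptidase inhibitor gene of goblet cells, fell from 3.01 to 1.29 FPKM (−0.80), a call lost with no filter on low values (adjusted p = 0.0510). Under normoxia the trefoil gene TFF1 fell from 7.71 to 2.73 RPKM (−1.23), while its relative TFF3 did not pass. Under hypoxia TFF1 was also called lower, from 5.75 to 3.94 FPKM (−0.45, limma adjusted p = 0.00871), where TFF3 rose. The rise of MUC13 under normoxia (0.28) lost its call with the first control (adjusted p = 0.128), the second control (0.0555) or the second knockdown library (0.0622) left out.

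Related genes and known targets gave smaller groups. Of the 10 further CEACAM genes 1, CEACAM19, was tested, and it rose under normoxia (log2 fold change 1.019 ± 0.09, limma adjusted p = 0.00107) and did not pass under hypoxia (0.20, adjusted p = 0.159). Of 5 other simple epithelial keratins 4 were tested. KRT19 (−0.61), KRT8 (−0.24) and KRT18 (−0.19) fell under normoxia while KRT20 rose, and under hypoxia KRT7 rose (0.47). KRT8 lost its call with the first control (adjusted p = 0.0937), the second control (0.0787) or the second knockdown library (0.067) left out. KRT18 lost it with any of the 4 left out, with adjusted p between 0.062 and 0.248. Of 20 known CDX2 and HNF4A targets, members VIL1, KRT20, CDX1 and MUC2 among them, 6 were tested. Under normoxia 2 rose and 3 fell (median −0.08), beside 22.5% and 11.7% of all genes. Under hypoxia 3 rose and 3 fell (median 0.47), beside 24.6% and 33.8%. Of the tested targets not yet described, the tight junction genes CLDN2 (−1.13) and CLDN7 (−0.33) fell under normoxia and again under hypoxia (−0.28 and −0.53). The CLDN7 call under normoxia was lost without control replicate 1 (adjusted p = 0.0510). That of CLDN2 under hypoxia was lost with the first control (0.0572), the first knockdown (0.110) or the second knockdown library (0.197) left out. With no filter on low values the calls of FOXA3, SLC26A2, PLS1, MUC13, KRT8, KRT18 and CLDN7 under normoxia and of FOXA3 and CLDN2 under hypoxia were lost too (adjusted p between 0.0519 and 0.191). Scaling to the median ratio ended those of PLS1 (0.0624) and MUC13 (0.0607) under normoxia and CLDN2 (0.0638) under hypoxia, and the fit of all libraries those of SLC26A2 (0.0639) and KRT18 (0.0529).

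The difference between oxygen levels was tested for the lists in the same fit. Over all genes 13.4% were called higher and 29% lower, a split that moves with the scaling as given above, and the counts of the lists were not taken under the other scaling. The difference was called higher under hypoxia for 8 and lower for 2 of the 18 tested transcription factors, and higher for 6 and lower for 1 of the 10 goblet and secretory genes. REP15, whose values are highest in knockdown libraries under hypoxia and low elsewhere, is among those 6. Of 9 absorptive genes 2 were higher, among them CDH17 (0.50 ± 0.07, limma adjusted p = 0.000597), and of 4 keratins 3. The difference was 1.05 for ISX (limma adjusted p = 0.000363) and 0.99 for EHF (limma adjusted p = 0.000116), and it was −0.78 for ELF3 (limma adjusted p = 0.000127) and −0.82 for CEACAM19 (limma adjusted p = 0.00118). The value of EHF combines a fall under normoxia with a rise under hypoxia.

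**Figure D3:**
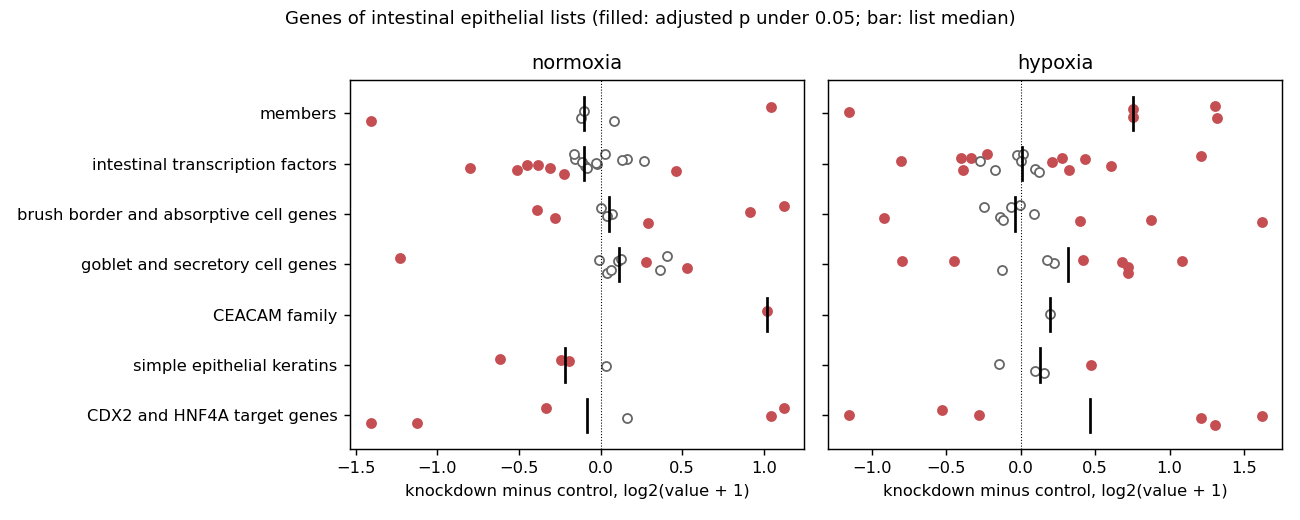
Log2 fold change of each tested gene of the epithelial lists under normoxia (left) and hypoxia (right), on log2(value + 1). Filled points passed the test, open points did not, and black bars mark list medians, which for the members lie at −0.10 and 0.76.

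Markers of other cell types were low, with 2 tuft cell genes as the exception. None of 9 enteroendocrine, 5 Paneth and 8 fibroblast markers reached a mean of 1 in either table, nor did the endothelial markers found there. Of 7 leukocyte markers CD14 alone did, at 1.17 RPKM under normoxia. The summed level of the 6 tuft markers was 8.83 to 9.25 RPKM in control and 12.8 RPKM in both knockdown libraries under normoxia, and 14.9 to 15.3 against 20.5 to 20.7 FPKM under hypoxia. It came mostly from IL17RB and AVIL, each called higher in 1 table, IL17RB under normoxia (0.52) and AVIL under hypoxia (0.69). POU2F3, the factor that defines tuft cells, was under 1 in every library. It read 0.0957 and 0.197 RPKM in control against 0.253 and 0.153 RPKM in knockdown libraries under normoxia. Under hypoxia it read 0.0722 and 0.172 against 0.581 and 0.566 FPKM, where the groups did not overlap, as in 80.4% of genes tested, a set without POU2F3. Under hypoxia the fibroblast sum was 0.568 to 0.649 FPKM in control and 1.21 to 1.35 FPKM in knockdown libraries, with DCN, LUM, COL1A2 and THY1 at 0. Within it COL1A1 averaged 0.410 against 0.742 FPKM and PDGFRB 0.198 against 0.521 FPKM, both without overlap. The leukocyte sum there was 0.411 to 0.833 against 1.08 to 1.54 FPKM, with PTPRC at 0. CD68 read 0.270 and 0.0741 FPKM in control and 0.307 and 0.947 FPKM in knockdown libraries, which lay far apart. Under normoxia these sums were 0.409 to 0.423 against 0.514 to 0.534 RPKM and 1.0097 to 1.33 against 1.15 to 1.58 RPKM. Within the fibroblast sum under normoxia, COL1A1 was again higher in knockdown libraries, at 0.135 against 0.428 RPKM on average. PDGFRB went the other way there, from 0.270 in control to 0.0580 RPKM in knockdown libraries on average, also without overlap. The enteroendocrine sum was 0.220 to 0.333 against 0.596 to 0.744 RPKM under normoxia and 0.236 to 0.264 against 0.180 to 0.256 FPKM under hypoxia, with NEUROD1 and INSM1 at 0 in both. Within it PYY averaged 0.0685 against 0.359 RPKM under normoxia. The Paneth sum was 0.429 to 0.607 against 0.240 to 0.392 RPKM and 0.165 to 0.371 against 0.248 to 0.310 FPKM, with DEFA5 and DEFA6 at 0 in both. The endothelial sum was 0.242 to 0.247 against 0.175 to 0.258 RPKM and 0.0782 to 0.311 against 0.230 to 0.243 FPKM, with KDR at 0 in both. The part of these genes in the results was not tested.

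The listed genes whose pattern was most like that of a member were found by Pearson's r over the 8 libraries, after centring each table, among 43 genes. As all share the same libraries and the same split into control and knockdown, r is high throughout and is a description. KRT20 was most like CDH17 (r = 0.994), DPP4 (0.976) and MUC20 (0.966). CDX2 was most like KLF4 (0.989), ISX (0.988) and KRT7 (0.987). TFF3 was most like EZR (0.982), KRT7 (0.970) and KLF4 (0.963), and HNF4A like GRHL2 (0.977), EZR (0.977) and KRT7 (0.972). VIL1 was most like FOXA1 (0.978), SOX9 (0.928) and CLDN7 (0.926). Among the members, CDX2, HNF4A and TFF3 went together (r = 0.949 to 0.977), and VIL1 ran opposite to KRT20 (r = −0.975).

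**Figure D4:**
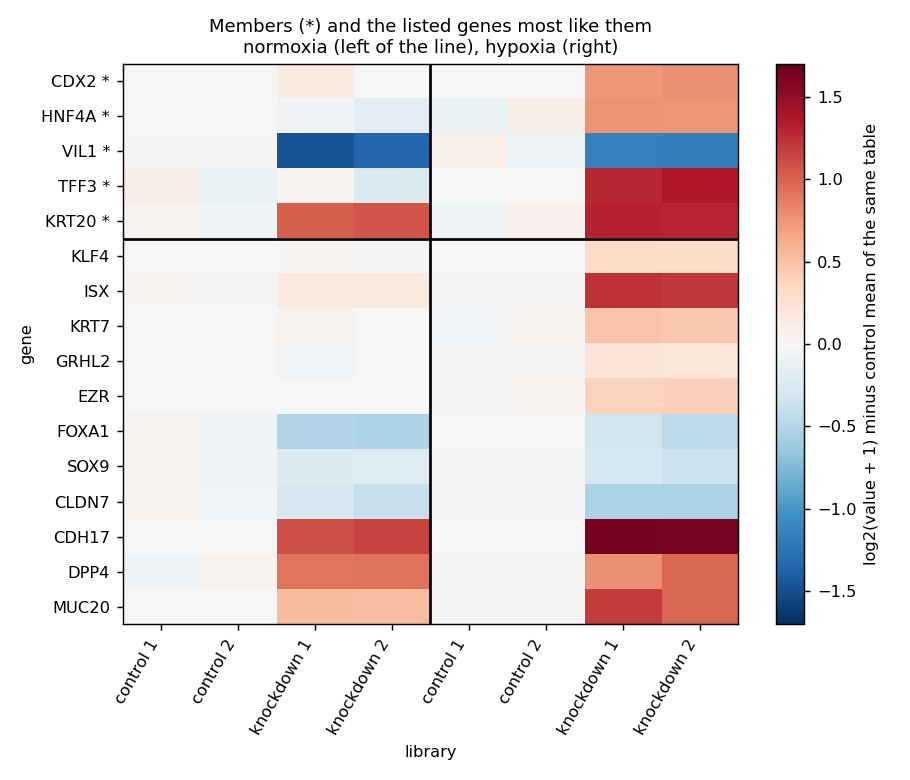
Log2(value + 1) of the 5 tested members (marked with *) and of the listed genes most like them, in each library, minus the control mean of the same table. Red is higher and blue lower than control. CDX2, HNF4A and TFF3 are near white in the knockdown libraries under normoxia and red under hypoxia, KRT20 and CDH17 are red in both, and VIL1 is blue in both.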

How the data were processed

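Directional poly(A) libraries of DLD1 RNA were sequenced, per the labels' protocols. The submitters' processing notes name cutadapt 1.18, Trimmomatic 0.35, FastQC, HISAT2 2.1.0 and the build GRCh38. What counted reads, on which annotation and with which strand setting, is not given in the sources used here. Values that the authors deposited are RPKM for normoxia and FPKM for hypoxia, per the file headers, and 4 columns of other samples were not used.

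The members and lists were chosen with earlier results of these data known. All 9 members are named, with up to 4 called, non-overlapping genes of each list per table and, for each called member, the 3 genes most like it; some genes that this rule names are not reported here. Values were tested as log2(value + 1) with limma 3.58.1 (trend) in R 4.3.3, over 14090, 13080 and 13585 genes with a mean of at least 1 for normoxia, hypoxia and the difference. Genes were matched between tables by symbols used once in each. The normoxia depth was set so that single-exon genes gave whole reads (89.7% to 90.6% within 0.02, up to 20 reads), so that share is no independent check. More of these genes stood at 2 reads than at 1, so reads may not be independent. Reads per member used GENCODE 29 exon lengths and are approximate. The steps were tested on simulated data. Sequences were read with Python 3.11.15 and Biopython 1.88. Alternatives changed the pseudocount (0.1), filter (0.5 or none), scaling (median of ratios), variance estimate (robust), libraries fitted (all, or each left out) and added the replicate number as a block.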

Additional observations from a re-analysis of the deposited data

Results flagged for a closer look

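Among the tested members, 3 responded to knockdown differently at the 2 oxygen levels by the interaction term of the fit of all 8 libraries. Oxygen and the separate scaling of each level cannot be told apart in this term. The fall of PPA2 itself also differed, by 1.11. TFF3 had the largest difference of the tested members, 1.42 on the log2 scale, with 13.5 against 14.5 RPKM (knockdown against control means) under normoxia and 21.5 against 8.02 FPKM under hypoxia. HNF4A differed by 0.88, with 13.9 against 15.3 RPKM and 14.99 against 8.49 FPKM. CDX2 differed by 0.67, with 42.1 against 39.7 RPKM and 68.5 against 40.1 FPKM. In each of the 3, both knockdown libraries were above both controls under hypoxia, as in 35.5% of all genes tested there. Over all genes tested for the difference, 42.4% were called, 13.4% higher and 29% lower under hypoxia, and the median was −0.13.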

How the results depend on the processing

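The count of tested members called was 2 under normoxia in each alternative tried, 5 or, with no filter on low values, 6 under hypoxia, and 3 or 4 for the difference. Of the values of members under alternatives, 175 kept their direction and their side of the threshold, 3 gained a call (the differences of KRT20 and VIL1 given above) and 2 turned sign (TFF3 under normoxia, which ranged from −0.23 to 0.031 with 1 library left out). Over all genes, calls under hypoxia went from 7637 of 13080 genes tested to 6067 of 29182 with no filter on low values, and CEACAM5 was the member gained. Under normoxia they went from 4818 (3165 higher, 1653 lower) to 2349 (1572 and 777) with this setting, which tests more genes. Leaving out 1 library gave 3027 to 4503 calls there (2073 to 2737 higher, 954 to 1766 lower), with 3027 without control replicate 1 and 3166 without control replicate 2. Scaling to the median ratio took calls of a higher response under hypoxia from 1815 to 2764, and moved the share of calls that were higher from 65.7% to 48.6% under normoxia and from 31.5% to 49.7% for the difference. With a library left out, the lone library of a group is assumed to vary like the others. Same-numbered libraries did not deviate together (r = 0.040 under normoxia and −0.015 under hypoxia across genes). A correlation over all genes cannot exclude a pairing that acts on some of them. With the replicate block 5060 genes were called under normoxia, 7751 under hypoxia and 5471 for the difference, and no call of a member changed. Low values limit CDX1, MUC2, CEACAM5 and CEACAM6. Under normoxia CDX1 rested on about 2 to 7 reads per library, MUC2 on 6 to 33, CEACAM6 on 16 to 48 and CEACAM5 on 26 to 117. Under hypoxia reads could not be estimated.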

Other observations

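The epithelial ETS factors ELF3 and EHF had very different values in the 2 tables, which are scaled separately, and no test was made across them. ELF3 averaged 32.1 RPKM under normoxia and 275 FPKM under hypoxia in control cells, and 31.7 RPKM and 157 FPKM in knockdown cells. EHF averaged 235 RPKM and 49.1 FPKM in control cells, and 180 RPKM and 75.2 FPKM in knockdown cells. For both genes the knockdown value under hypoxia lay between the control values of the 2 tables.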
